A study of Homo sapiens with 12 samples.

Results

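KDM7A and 9 related genes of the JmjC histone demethylase family were followed in HK-2 cells given a low dose of a compound named Nnm in the labels. KDM7A was chosen from these arrays because its level was higher in Nnm-treated cells at 24 h. The other 9 genes (PHF8, PHF2, KDM3A, KDM4B, KDM4C, KDM5A, KDM5B, KDM6A and KDM6B) were chosen as its relatives while results of these arrays were known. They are 10 of the 19775 genes that the array annotation names alone on at least 1 probe set. Because the choice rested on these values, the differences of the 10 genes between Nnm and control are given as a description, with no p-value. Counts of these genes among the calls of the fit over all genes are printed beside the share of all genes called, and nothing is read from them. The tests with p-values are those of other genes. Their lists were also chosen with earlier results of these data known, so these p-values and counts are open to the same selection.

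HK-2 is an immortalised line of human renal proximal tubule epithelial cells, grown here in a medium with epidermal growth factor, hydrocortisone and insulin. Cells were plated in 6-well plates 24 h before exposure and then received low-dose Nnm or vehicle for 24 h or 48 h. Treatment and time give 4 groups, each with 3 arrays that the labels call biological replicates. The amount of Nnm is not given beyond the word low, and all 4 groups come from 1 cell line, so the p-values measure the spread between cultures of that line.

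JmjC enzymes remove methyl groups from histone lysines in a reaction that uses iron, oxygen and 2-oxoglutarate and releases succinate. Different branches of the family act on different marks. The KDM7 branch (KDM7A, PHF8 and PHF2) pairs the JmjC domain with a PHD finger that reads methylated lysine 4 of histone H3, and acts on the repressive marks at lysines 9 and 27 of H3 and lysine 20 of H4. KDM3A and the KDM4 enzymes act on lysine 9, with lysine 36 as a further target of KDM4, the KDM5 enzymes on lysine 4, and KDM6A and KDM6B on lysine 27. KDM3A and KDM4B are known as genes that low oxygen induces through hypoxia-inducible factor (HIF).

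Values are the authors' log2 expression values for probe sets, the groups of oligonucleotides that measure 1 transcript region each. Between 40.4% and 40.8% of all probe sets exceeded a log2 value of 4 on each array, and a probe set was tested where it did so on at least 3 arrays. Levels of different probe sets are not on 1 scale, so values are compared between arrays and not between genes. Arrays of replicate 2 stand apart at both times. Over the 10907 genes tested, the SD of the change from control to Nnm of the same number was 0.373 log2 units in replicate 2 at 24 h, against 0.691 and 0.705 in replicates 1 and 3. At 48 h it was 0.364 in replicate 2, against 0.666 and 0.609. The 5′ minus 3′ signal of ACTB, a measure of RNA integrity, was between -1.17 and -1.09 on the 4 replicate 2 arrays and between -0.86 and -0.74 on the other 8, while the same measure for GAPDH overlapped. The part of replicate 2 in each result below was not tested beyond the values given with and without it.

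Cell type markers gave a mixed picture of the label. All 7 epithelial markers were above a log2 value of 4, with a mean level per marker of 11.3 to 11.7 in all groups. Of 10 proximal tubule markers on the array, only DPP4 exceeded 4, and it rose with Nnm at both times in limma's fit. SLC34A1, LRP2, CUBN and AQP1, which define that segment, stayed between 2.09 and 3.00 on all 12 arrays. The mean over the 10 markers was 3.43 to 3.49 in control and 3.51 to 3.56 in Nnm cells at 24 h. At 48 h it was 3.48 to 3.52 and 3.61. This mean follows DPP4, which averaged 11.51 in control and 12.49 in Nnm cells, while the other markers of the list barely differed. Markers of distal nephron passed in 2 of 5 cases, of fibroblasts in 4 of 7 (COL1A1, DCN, LUM and ACTA2), of endothelium in 1 of 5 and of leukocytes in 0 of 4. The fibroblast mean was 6.52 to 6.69 in control and 6.41 to 6.64 in Nnm cells at 24 h, and 6.39 to 6.51 and 6.45 to 6.53 at 48 h. Beside DPP4, SCNN1A of the distal nephron list rose at both times, by 0.75 and 0.71 (limma adjusted p = 0.021 and 0.031). Of the epithelial list PAX8 rose at 24 h by 0.65 (adjusted p = 0.040) and CDH6 at 48 h by 1.38 (adjusted p = 0.014). COL1A1 of the fibroblast list fell at 48 h by 0.53 (adjusted p = 0.049). With the replicate number as a block KRT8 (lower at both times), KRT18 (lower at 24 h), and PAX8, LUM and PECAM1 (all higher at 48 h) passed as well. Each marker change is from 1 probe set, although 8 passed the filter for PAX8 and 6 for CDH6, and the others were not compared. The part of these markers in the results for the demethylases was not tested.

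Probe set 221778_at of KDM7A, which encodes a demethylase of H3 lysines 9 and 27, read 3.83, 4.23 and 3.45 on control arrays 1 to 3 at 24 h. On the Nnm arrays at 24 h it read 8.17, 5.31 and 7.59. At 48 h it read 5.50, 5.26 and 5.20 in control and 7.71, 5.67 and 7.19 in Nnm cells. Every Nnm array lay above every control array of its time. Nnm replicate 2 was the lowest of its group at both times, and at 24 h it lay within the range of the 48 h controls.

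The KDM7A mean was 3.84 ± 0.39 (SD, n = 3) in control and 7.02 ± 1.51 (SD, n = 3) in Nnm cells at 24 h. The difference was 3.19 log2 units (SE 0.67), or 9.10-fold, the 8th most positive of the 10907 genes tested. At 48 h the means were 5.32 ± 0.16 and 6.85 ± 1.06 (SD, n = 3), a difference of 1.53 (SE 0.67), or 2.89-fold, which ranked 102nd. Only 1 of the 3 control arrays at 24 h exceeded 4, so that the 24 h fold sets a clear signal against one near the detection limit. Without Nnm 24 h replicate 2 the 24 h difference was 4.04, and without Nnm 48 h replicate 2 the 48 h difference was 2.13.

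The smaller difference at 48 h went with a higher control. Control cells read 1.48 log2 units (SE 0.67) higher at 48 h than at 24 h, and the 3 control arrays at 48 h all lay above those at 24 h. Nnm cells differed by -0.17 between the 2 times. The 48 h difference minus the 24 h difference was -1.65 (SE 0.95).

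By replicate number the KDM7A change was 4.34, 1.08 and 4.14 log2 units at 24 h, and 2.21, 0.40 and 1.99 at 48 h. It was positive in 6 of 6 pairs, which follows from every Nnm array lying above every control of its time. The same number marked the pair with the smallest change at both times, which was also the number whose changes over all genes were narrowest.

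A second KDM7A probe set, 225142_at, stayed below a log2 value of 4 on all 12 arrays and was not tested. It read 2.42 to 2.46 in control and 3.99, 2.46 and 3.75 in Nnm cells at 24 h, then 2.44 to 2.49 in control and 2.58, 2.46 and 3.92 in Nnm cells at 48 h. Nnm 24 h replicates 1 and 3 and Nnm 48 h replicate 3 stood above the rest, and the other 9 arrays lay between 2.42 and 2.58.

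**Figure D1:**
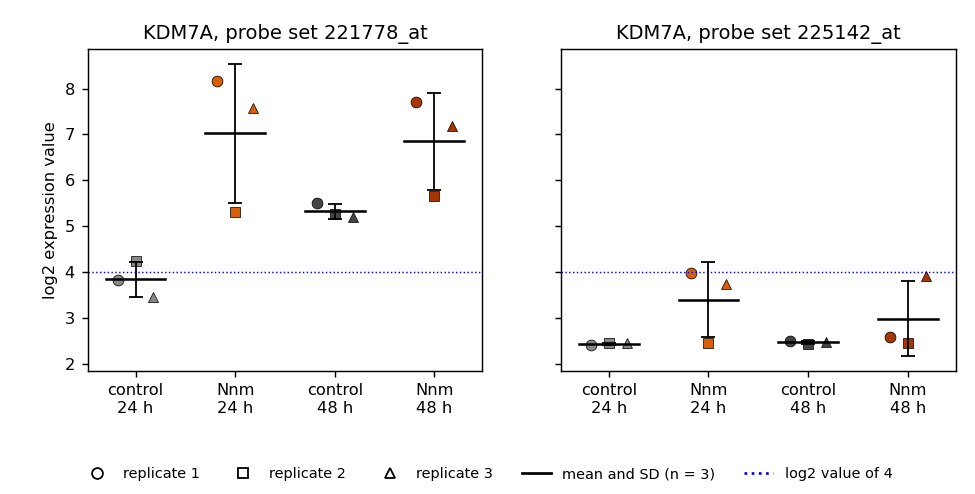
The log2 level of each KDM7A probe set is plotted for each array by group, with points for single arrays (shape by replicate number), lines for the mean and bars for the SD of 3 arrays. On 221778_at the Nnm arrays lie above the controls of their time, with replicate 2 lowest at 5.31 and 5.67, while 225142_at stays below the dotted line at a log2 value of 4.

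PHF2 and PHF8, the closest relatives of KDM7A, differed less. PHF2 encodes a demethylase of H3 lysine 9 that is switched on by phosphorylation, and its probe set 212726_at read 7.38, 7.04 and 6.97 in control and 7.97, 7.37 and 7.72 in Nnm cells at 24 h. At 48 h it read 7.35, 7.11 and 7.03 in control and 8.06, 7.80 and 7.91 in Nnm cells. The 24 h groups overlapped by the lowest Nnm array, and at 48 h every Nnm array lay above every control.

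The PHF2 difference was 0.56 (SE 0.17), or 1.47-fold, at 24 h and 0.76 (SE 0.17), or 1.69-fold, at 48 h. The pair changes were 0.59, 0.33 and 0.75 at 24 h and 0.71, 0.69 and 0.87 at 48 h. At 48 h the change of replicate 2 was close to that of replicate 1.

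PHF8 encodes a demethylase of H3 lysine 9 and H4 lysine 20 and is mutated in an X-linked intellectual disability. Its probe set 212916_at read 6.67, 6.51 and 6.68 in control and 7.24, 6.68 and 7.24 in Nnm cells at 24 h. At 48 h it read 6.67, 6.57 and 6.68 in control and 6.98, 6.40 and 6.74 in Nnm cells. Nnm replicates 1 and 3 were high at 24 h and replicate 2 was level with the highest controls, and the 48 h groups overlapped. The difference was 0.43 (SE 0.18) at 24 h and 0.06 (SE 0.18) at 48 h.

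KDM3A encodes a demethylase of H3 lysine 9 with roles in metabolism and spermatogenesis. Its probe set 212689_s_at read 9.44, 9.48 and 9.29 in control and 10.32, 9.60 and 10.17 in Nnm cells at 24 h. The 48 h values were 9.74, 9.64 and 9.62 in control and 10.08, 9.66 and 9.86 in Nnm cells. The 24 h groups did not overlap, and at 48 h Nnm replicate 2 lay inside the control range.

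The KDM3A difference was 0.63 (SE 0.18), or 1.54-fold, at 24 h and 0.20 (SE 0.18) at 48 h. Its pair changes of 0.88, 0.12 and 0.88 at 24 h had the order of those of KDM7A, with replicate 2 smallest. Control cells read 0.26 (SE 0.18) higher at 48 h than at 24 h.

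The 250 bases upstream of the start are shown for KDM7A, for KDM3A, whose values followed KDM7A most closely among these genes, and for PHF2, of the same branch as KDM7A, as a window without the motif searched. The sequences are from RefSeq on build GRCh38.p14, 5′ to 3′ on the strand of the gene. Capitals mark the hypoxia response core, searched as ACGTG and GCGTG on both strands (so also as CACGT and CACGC), letters that overlap the E-box CACGTG. KDM7A is shown from chr7:140176984-140177233 on the minus strand, KDM3A from chr2:86441121-86441370 on the plus strand and PHF2 from chr9:93576334-93576583 on the plus strand.
KDM7A: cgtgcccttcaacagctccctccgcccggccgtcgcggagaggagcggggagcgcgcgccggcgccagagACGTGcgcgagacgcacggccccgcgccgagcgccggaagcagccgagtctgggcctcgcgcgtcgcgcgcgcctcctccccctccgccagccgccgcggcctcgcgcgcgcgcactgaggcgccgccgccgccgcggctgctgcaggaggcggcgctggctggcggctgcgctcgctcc
KDM3A: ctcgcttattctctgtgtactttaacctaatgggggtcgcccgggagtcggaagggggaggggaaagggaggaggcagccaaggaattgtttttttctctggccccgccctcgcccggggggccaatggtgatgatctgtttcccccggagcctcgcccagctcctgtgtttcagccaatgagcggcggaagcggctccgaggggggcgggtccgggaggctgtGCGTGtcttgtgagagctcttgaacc
PHF2: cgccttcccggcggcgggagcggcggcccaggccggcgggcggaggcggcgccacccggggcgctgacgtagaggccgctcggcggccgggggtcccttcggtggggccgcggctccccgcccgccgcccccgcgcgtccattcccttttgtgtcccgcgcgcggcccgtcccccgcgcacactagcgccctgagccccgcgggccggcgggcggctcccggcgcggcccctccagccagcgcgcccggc
The core stood 180 bases upstream of the start in KDM7A and 26 bases upstream in KDM3A, and these letters were not in the PHF2 window. Another KDM3A window, with a different start, overlaps the one shown and holds the same core at 116 bases. This site is thus counted once for each window below. Among all 35116 promoter windows of this length in the table, 43.2% held the core and 6.3% the E-box. Over the 10 genes, 9 of 14 windows held the core, in 8 of the 10 genes, and the 3 PHF8 windows did not. A match of 5 letters at this background frequency describes the sequence and says nothing of binding.

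KDM4B and KDM4C encode demethylases of H3 lysines 9 and 36. KDM4B (212496_s_at) read 8.25, 8.0 and 7.88 in control and 8.82, 8.18 and 8.06 in Nnm cells at 24 h. After 48 h it read 8.63, 8.35 and 8.44 in control and 8.63, 8.27 and 8.06 in Nnm cells. The groups overlapped at both times, and replicate 1 was the highest array of each group.

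The KDM4B difference was 0.31 (SE 0.21) at 24 h and -0.16 (SE 0.21) at 48 h. Of its 8 probe sets 4 passed the filter, with 3 higher at 24 h (range -0.14 to 0.31) and all 4 lower at 48 h (range -0.23 to -0.12). Control cells read 0.43 (SE 0.21) higher at 48 h than at 24 h. KDM4C was not tested: its 4 probe sets stayed between 2.25 and 3.82. Its highest value was Nnm 24 h replicate 1 on 209984_at, where the other 11 arrays stood lower.

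KDM5A and KDM5B remove methyl groups from H3 lysine 4, a mark of active promoters. KDM5A, first found as a partner of the retinoblastoma protein, read 8.81, 9.22 and 8.90 in control and 9.04, 9.31 and 9.09 in Nnm cells at 24 h on 202040_s_at. The 48 h values were 8.80, 9.17 and 8.92 in control and 9.09, 9.24 and 9.36 in Nnm cells. Groups overlapped at both times. Here replicate 2 was highest in both control groups.

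The KDM5A difference on that probe set was 0.17 (SE 0.14) at 24 h and 0.26 (SE 0.14) at 48 h. All 4 probe sets that passed were higher at both times, by 0.09 to 0.44 at 24 h and 0.25 to 0.73 at 48 h. On 230226_s_at the Nnm arrays at 48 h read 7.47, 7.20 and 7.32 against 6.56, 6.74 and 6.48 in control, with no overlap. The size of the KDM5A difference thus depended on the probe set, at 0.47 for the mean over its probe sets at 48 h.

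KDM5B was the gene of the family whose 3 tested probe sets were all lower in Nnm cells. On 211202_s_at it read 9.93, 10.00 and 9.79 in control and 10.03, 9.97 and 9.66 in Nnm cells at 24 h. The 48 h values were 10.24, 10.20 and 10.07 in control and 9.92, 9.94 and 9.76 in Nnm cells. The 24 h groups overlapped, and at 48 h every Nnm array lay below every control.

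The KDM5B difference was -0.02 (SE 0.12) at 24 h and -0.30 (SE 0.12) at 48 h. Across its 3 probe sets it ranged from -0.21 to -0.02 at 24 h and from -0.32 to -0.30 at 48 h. Control cells read 0.26 (SE 0.12) higher at 48 h than at 24 h.

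KDM6A and KDM6B remove the repressive mark at H3 lysine 27. KDM6A (203992_s_at) read 8.08, 7.87 and 7.78 in control and 7.88, 7.78 and 8.26 in Nnm cells at 24 h, then 7.80, 8.16 and 7.96 in control and 8.25, 7.90 and 8.13 in Nnm cells at 48 h. Both pairs of groups overlapped, and the difference was 0.07 (SE 0.16) at 24 h and 0.12 (SE 0.16) at 48 h. The other tested probe sets gave larger differences, 0.65 and 0.48 on 203991_s_at and 0.59 and 0.42 on 203990_s_at at 24 h and 48 h. On both of these the 24 h Nnm arrays lay above the controls.

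KDM6B (41386_i_at), which is induced in inflammation, read 6.21, 6.01 and 6.46 in control and 6.02, 5.77 and 6.08 in Nnm cells at 24 h. The 48 h values were 6.15, 5.75 and 6.02 in control and 5.86, 5.77 and 5.61 in Nnm cells. The groups overlapped at both times, with a difference of -0.27 (SE 0.15) and -0.23 (SE 0.15). Its 4 tested probe sets disagreed in sign, with 2 higher and 2 lower at each time, so no direction is given for the gene.

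**Figure D2:**
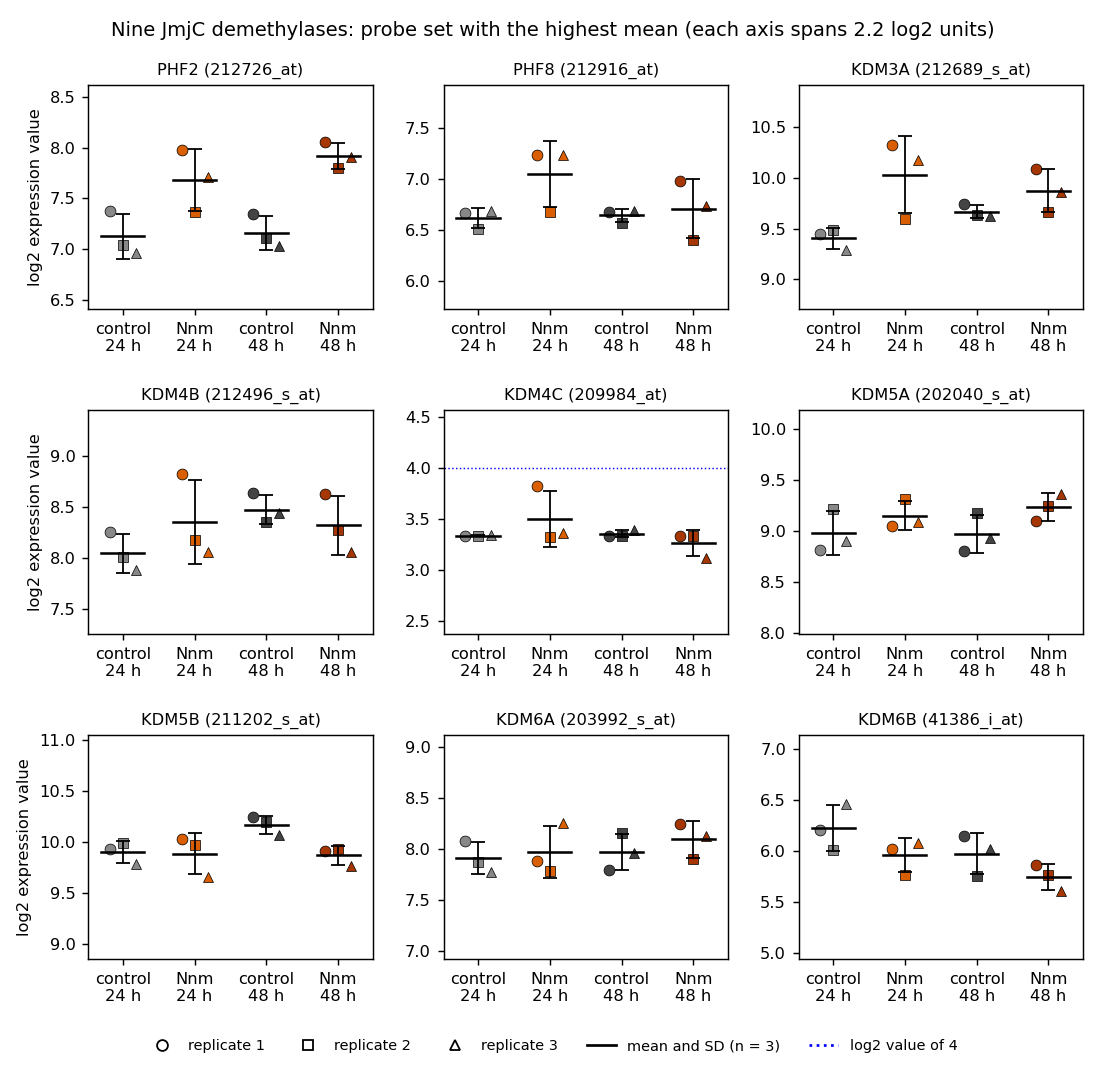
The log2 level on each array is plotted by group for the 9 genes other than KDM7A, with the mean and SD of 3 arrays, and every axis spans the same number of log2 units. PHF2, PHF8 and KDM3A have Nnm replicates 1 and 3 above the controls at 24 h, KDM5B has its 3 Nnm arrays below the controls at 48 h, and KDM4C stays under the dotted line at a log2 value of 4.

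Counted together, 40 probe sets carried the 10 genes, of which 22 passed the filter, in 9 genes. Of the 18 that did not pass, those of genes other than KDM7A never exceeded 3.82. In limma's fit over all genes with Benjamini-Hochberg adjustment, 3 of 9 genes were called at 24 h (KDM7A, PHF2 and KDM3A, all higher), where 19.4% of all genes were called, 10.6% higher and 8.85% lower. At 48 h 1 of 9 was called (PHF2, higher), where 13.8% of all genes were called, 8.45% higher and 5.34% lower. Since the genes were chosen with these contrasts known, nothing is read from the counts.

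With the replicate number as a block, which gave 4237 calls over all genes at 24 h and 3515 at 48 h against 2116 and 1504 without it, the counts were 4 and 2, with PHF8 (higher) and KDM5B (lower) added. Without control 24 h replicate 3 or Nnm 24 h replicate 1 or 3, none of the 9 was called at 24 h. Over all genes 404, 616 and 537 were then called. Without control 24 h replicate 2 there was 1 of the 9, beside 1659 over all genes. At 48 h none was called without control 48 h replicate 2 or 3 or without Nnm 48 h replicate 1 or 3. Over all genes 888, 419, 267 and 381 were then called. Without replicate 2 of Nnm 24 h or of Nnm 48 h 2 were called, beside 1945 and 2403 over all genes. Nothing is read from these member counts.

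The 3 Nnm values lay outside the 3 control values for 2 of the 9 genes at 24 h (KDM7A and KDM3A) and for 3 at 48 h (KDM7A, PHF2 and KDM5B). Over all genes tested, 39.8% were separated in this way at 24 h and 36.1% at 48 h. The differences were positive in 7 of 9 genes at 24 h and in 6 of 9 at 48 h, with KDM7A among them by choice. The median of the differences was 0.31 and 0.12, beside 0.01 and 0.02 over all genes. These medians are the values of KDM4B at 24 h (SE 0.21) and of KDM6A at 48 h (SE 0.16). The share of positive differences over all genes was not counted. Nothing is read from these counts or medians.

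Between the 2 control groups, 0.128% of all genes were called and 0 of the 9 in limma's fit, and the block called 924 genes over all and 1 of the 9 (KDM4B, higher at 48 h). The change in the Nnm difference from 24 h to 48 h was called in 0% of all genes by limma, with 698 genes at an unadjusted p under 0.05 and 2 called under the block. It was negative in 5 of the 9 genes, with a median of -0.28 beside 0.01 over all genes, and nothing is read from this count. Both time comparisons share their control arrays with the Nnm comparisons.

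**Figure D3:**
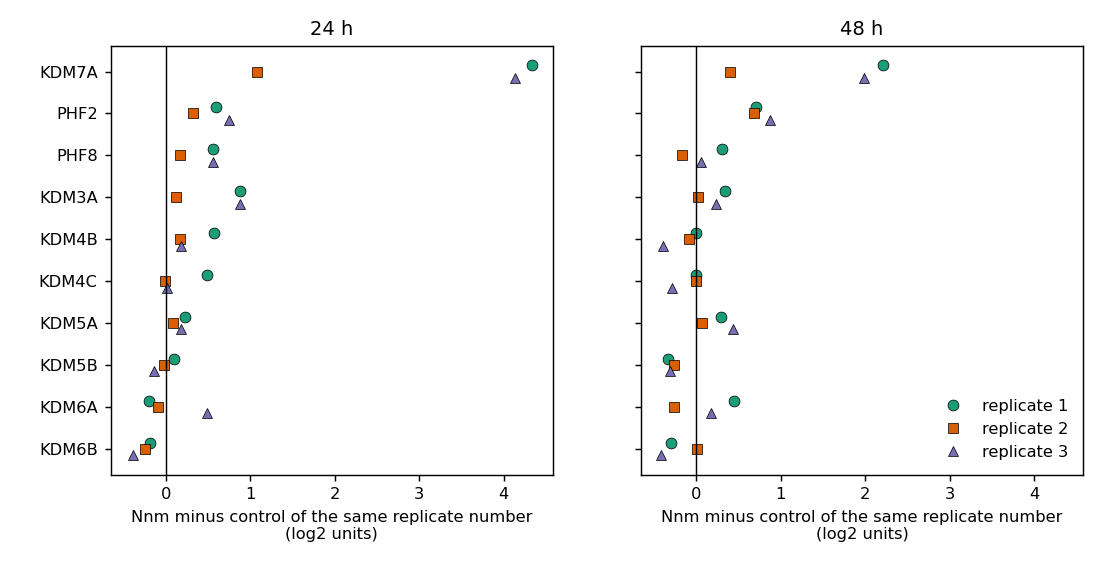
The change from control to Nnm of the same replicate number is plotted in log2 units for each of the 10 genes at 24 h and at 48 h, with 1 point for each replicate number. KDM7A spans 1.08 to 4.34 at 24 h and 0.40 to 2.21 at 48 h with replicate 2 lowest, while the 3 points of PHF2 lie close together at 48 h.

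The genes whose log2 values followed KDM7A most closely over the 12 arrays were TEX19, TMED5, KLHL2, CHMP4C and LYSMD2, each with a Pearson correlation of 0.98. TEX19 read 8.77, 8.83 and 8.48 in control and 10.56, 9.63 and 10.56 in Nnm cells at 24 h, and 9.58, 9.42 and 9.26 against 10.46, 9.76 and 10.13 at 48 h. As for KDM7A, its controls stood higher at 48 h, and Nnm replicate 2 stood lowest among the Nnm arrays. The Nnm minus control difference at 24 h was 1.56 in TEX19, 0.70 in TMED5, 0.91 in KLHL2, 0.98 in CHMP4C and 0.68 in LYSMD2.

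The most opposite were FOXRED1, MAEA and RBKS, with correlations of -0.98. FOXRED1, an assembly factor of respiratory complex I, read 7.55, 7.15 and 7.57 in control and 5.54, 6.72 and 5.77 in Nnm cells at 24 h. Such correlations were common, since 307 other genes had one above 0.9 and 329 one below -0.9. They are a description over arrays that share 4 group means and the pattern of replicate 2.

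Among the 9 tested demethylases, KDM3A had the correlation nearest to KDM7A, at 0.97, which is the 12th highest among all other genes. After the group means were taken out it was 0.98. PHF2 stood at 0.85, and at 0.75 without the group means, and PHF8 at 0.74 and 0.88. KDM4B (0.50 and 0.47) and KDM6A (0.49 and 0.51) stood lower. The sign turned for KDM5A, from 0.33 to -0.33, and for KDM6B, from -0.47 to 0.25, and KDM5B stood at -0.21 and -0.08, so no direction is given for these 3.

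Other JmjC proteins were counted from a list of 18 genes, of which 14 were tested. This list and those that follow were chosen with earlier results of these data known. Their counts stand beside 10.6% of all genes called higher and 8.85% lower at 24 h. At 48 h these shares were 8.45% and 5.34%, and the medians over all genes were 0.01 and 0.02. Counts with the block stand beside 2186 of the 10907 genes called higher and 2051 lower at 24 h, and 2023 and 1492 at 48 h. Without both Nnm replicate 2 arrays 1970 and 1733 were called at 24 h, and 1792 and 1364 at 48 h. At 24 h 2 of the 14 were called higher (JARID2 and HIF1AN) and 3 lower (JMJD4, RIOX1 and TYW5), with a list median of 0.04. At 48 h KDM3B and HIF1AN were called higher and none lower, with a median of -0.04. With the block RIOX2 was called higher as well at 24 h (limma adjusted p = 0.033 against 0.062), giving 3 higher and 3 lower. The 8 genes KDM2A, KDM2B, JMJD1C, KDM4A, KDM5C, JMJD6, HSPBAP1 and RIOX2 did not pass at either time without the block.

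JMJD4, a lysyl hydroxylase of a translation release factor, read 4.97, 4.0 and 6.30 in control and 2.79, 2.99 and 3.05 in Nnm cells at 24 h. The difference was -2.15 log2 units (SE 0.49). JMJD4 passed the filter only through 4 control arrays and lay under 4 on all 6 Nnm arrays. The size of its difference thus rests on values at the detection limit. No p is given, although JMJD4 is 1 of the genes counted as called lower at 24 h. After 48 h it read 4.18, 3.89 and 4.99 in control and 3.11, 3.84 and 3.87 in Nnm cells, a difference of -0.74.

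JARID2, a JmjC protein without demethylase activity that accompanies Polycomb complex PRC2, rose by 0.53 at 24 h (SE 0.16, limma adjusted p = 0.044). HIF1AN, which hydroxylates HIF, differed by 0.30 at 24 h and 0.32 at 48 h on the probe set tested (adjusted p = 0.044 and 0.048). Its other 2 probe sets were lower at both times and the mean over the 3 differed by -0.02 and 0.04, so no direction is given for HIF1AN. KDM3B, the nearest relative of KDM3A, differed by -0.01 at 24 h and rose by 0.35 at 48 h (SE 0.10, adjusted p = 0.048). These values lie close to the threshold.

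The count of this list moved with single arrays, and at 24 h JMJD4 was the gene left where only 1 was called. At 24 h it was 0 of 14 without control 24 h replicate 3 or Nnm 24 h replicate 1 or 3. Over all genes 404, 616 and 537 were then called. It was 1 without control 48 h replicate 1, 2 or 3 or Nnm 48 h replicate 3. These left 1782, 1756, 1728 and 1844 over all genes. It was 2 without control 24 h replicate 1, beside 931 over all genes. It was 3 without control 24 h replicate 2, Nnm 24 h replicate 2 or Nnm 48 h replicate 1. These left 1659, 3248 and 2175 over all genes. At 48 h it was 2 of 14 without Nnm 24 h replicate 2 and 1 without Nnm 48 h replicate 2. Over all genes 1945 and 2403 were then called. It was 0 without any one of the other 10 arrays, which left 267 to 1465 over all genes. Nothing is read from these list counts.

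**Figure D4:**
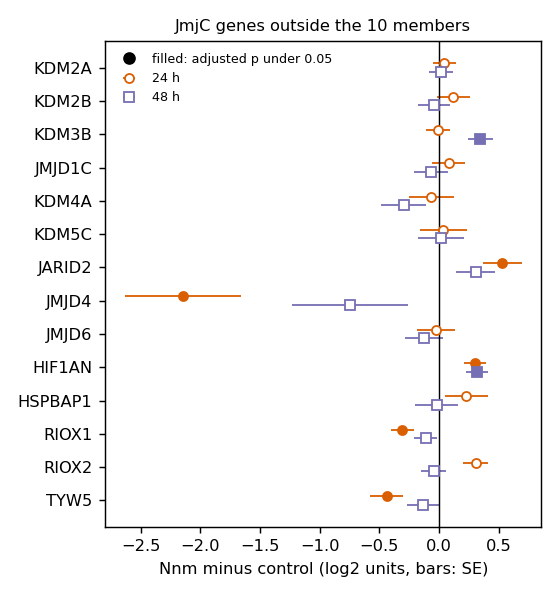
The Nnm minus control difference in log2 units is plotted with its SE for the 14 tested JmjC genes outside the 10, as circles at 24 h and squares at 48 h, filled where the limma adjusted p was under 0.05. JMJD4 lies far to the left at 24 h, at -2.15, while the other 13 genes lie between -0.44 and 0.53 at both times.

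Among the other histone demethylases and their partners, the amine oxidase enzymes KDM1A and KDM1B with the CoREST complex, 1 of 8 tested genes rose at 24 h and none passed at 48 h, with medians of 0.18 and -0.06. The riser was PHF21A, the CoREST subunit that reads unmethylated H3 lysine 4, at 1.14 log2 units (SE 0.32, limma adjusted p = 0.034). It read 7.67, 7.42 and 7.18 in control and 9.15, 7.88 and 8.65 in Nnm cells at 24 h. Nnm replicate 2 was again the lowest of its group and still above the controls. Of the 3 PHF21A probe sets that passed the filter, 1 differed by only 0.01 at 24 h. With the block 3 of the 8 passed at 24 h, with KDM1B higher and HDAC2 lower added.

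Enzymes that write the marks these demethylases remove were counted from 4 lists, which also hold partner proteins and HP1 that write no mark. Of 10 genes of PRC2, which methylates H3 lysine 27, 1 was called higher and 2 lower at 24 h and 1 lower at 48 h (medians -0.08 and 0.08). With the block PHF1 was called higher as well at 24 h (2 higher and 2 lower), and without both Nnm replicate 2 arrays 2 were higher and 3 lower at 24 h and 1 higher and 1 lower at 48 h. PHF19, the PRC2 partner that reads H3 lysine 36 methylation, read 11.04, 10.83 and 11.23 in control and 9.99, 10.29 and 9.87 in Nnm cells at 24 h. It fell by 0.99 at 24 h (SE 0.17, limma adjusted p = 0.0075) and by 1.04 at 48 h (SE 0.17, adjusted p = 0.0074), while 1 of its 3 probe sets differed by -0.17 and 0.13. EZH1, one of the catalytic subunits, rose by 0.50 at 24 h (adjusted p = 0.038). RBBP4 differed by -0.47 at 24 h on the probe set tested (adjusted p = 0.046), but 3 of its 6 probe sets were higher and their mean differed by -0.08, so no direction is given for RBBP4.

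Of 10 genes for H3 lysine 9 methylation and HP1, 1 fell at 24 h and 1 rose at 48 h, with medians of -0.18 and 0.03. WIZ, a zinc finger partner of the G9a enzyme, fell by 0.79 at 24 h (SE 0.20, limma adjusted p = 0.025), and SUV39H1 rose by 0.38 at 48 h (adjusted p = 0.049). The block called 2 of the 10 at each time. Of 11 genes for H3 lysine 4 methylation, KMT2C rose at 24 h by 0.83 (SE 0.22, adjusted p = 0.026) and none passed at 48 h (medians 0.13 and 0.03), and the block added 1 that fell at 24 h.

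Of 6 tested genes for H3 lysine 36 and H4 lysine 20 methylation, none passed at 24 h and NSD2 was called higher at 48 h, by 0.68 (SE 0.14, limma adjusted p = 0.016), with medians of 0.18 and 0.15. Its probe sets disagreed: the mean over them differed by -0.19 (adjusted p = 0.44), so no direction is given for NSD2. The block called 2 of the 6 at 24 h.

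Other dioxygenases that share the iron and 2-oxoglutarate chemistry were counted from a list of 22 genes, 20 of them tested. At 24 h 3 were called higher and 1 lower, and at 48 h 2 were called higher, with medians of 0.17 and 0.13. TET1, which oxidises methylcytosine in DNA, read 3.85, 3.40 and 3.41 in control and 5.31, 4.16 and 5.18 in Nnm cells at 24 h, then 3.31, 3.59 and 3.35 against 5.57, 4.18 and 5.09 at 48 h. Its controls all lay under 4, and Nnm replicate 2 was the lowest Nnm array at both times. The difference was 1.33 at 24 h (SE 0.36) and 1.53 at 48 h. TET1 passed the filter only through its 6 Nnm arrays, so no p is given, although it is 1 of the genes counted as called at each time.

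PHYH, the peroxisomal hydroxylase of phytanoyl-CoA, rose by 1.02 at 24 h (SE 0.23, limma adjusted p = 0.016) and by 0.80 at 48 h (adjusted p = 0.042). EGLN1, the oxygen sensor that hydroxylates HIF, rose by 0.41 at 24 h (SE 0.12, adjusted p = 0.036), and OGFOD1, a hydroxylase of a ribosomal protein, fell by 0.74 (SE 0.19, adjusted p = 0.026). With the block the counts were 8 higher and 3 lower at 24 h and 5 higher and 2 lower at 48 h. Over all genes the block called 2186 higher and 2051 lower at 24 h, and 2023 and 1492 at 48 h.

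Of 10 tested enzymes that make and use 2-oxoglutarate, succinate and fumarate, 1 rose and 6 fell at 24 h and 4 fell at 48 h, where 8.85% and 5.34% of all genes fell. The median of the list was -0.46 at both times, beside 0.01 and 0.02 over all genes. The genes that fell at 24 h were IDH3A, IDH3B and IDH3G (the mitochondrial NAD-dependent isocitrate dehydrogenase), OGDH and DLST (the 2-oxoglutarate dehydrogenase complex) and SDHA (succinate dehydrogenase). IDH1, the cytosolic NADP-dependent isocitrate dehydrogenase, was the one that rose, by 0.56 (SE 0.12, limma adjusted p = 0.016). Other probe sets of IDH3A, IDH3G and OGDH were not compared.

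DLST read 10.98, 10.73 and 10.76 in control and 9.57, 10.26 and 9.85 in Nnm cells at 24 h. It fell by 0.93 at 24 h (SE 0.18, limma adjusted p = 0.011) and by 0.77 at 48 h (adjusted p = 0.025). SDHA fell by 0.78 and 0.85 (adjusted p = 0.018 and 0.016), and IDH3B by 0.47 and 0.72 (adjusted p = 0.018 and 0.0060). OGDH, which fell by 0.98 at 24 h, differed by -0.72 at 48 h with an adjusted p of 0.054, and passed there under the block (adjusted p = 0.0024). The SDHA and DLST values of Nnm replicate 2 lay nearer to the controls at 24 h than those of the other Nnm arrays.

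HIF and genes known to answer to it were counted from a list of 20, of which 18 were tested. At 24 h 2 rose (CA12 and MXI1) and 2 fell (PDK1 and PGK1), with a median of 0.29. At 48 h CA12 rose and PDK1 and PGK1 fell, with a median of 0.07. HIF1A, ARNT, VEGFA, SLC2A1 and LDHA were among the genes that did not pass at either time, and they did not pass with the block.

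CA12, a membrane carbonic anhydrase, read 9.29, 9.19 and 7.64 in control and 11.79, 10.97 and 11.19 in Nnm cells at 24 h, then 10.18, 9.62 and 8.59 against 12.74, 11 and 12.26 at 48 h. It rose by 2.61 at 24 h (SE 0.56, limma adjusted p = 0.014) and by 2.54 at 48 h (adjusted p = 0.018). PDK1, the kinase that shuts pyruvate dehydrogenase, fell by 0.93 and 1.38 (SE 0.23, adjusted p = 0.022 and 0.0080). PGK1, a glycolytic kinase, fell by 0.59 and 0.63 (adjusted p = 0.014 and 0.013), and MXI1, a MYC antagonist, rose by 0.77 at 24 h (adjusted p = 0.023). The genes of the list that passed without the block thus moved in both directions.

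The block raised the counts of this list to 8 higher and 2 lower at 24 h. At 48 h they were 5 higher and 4 lower. Over all genes the block called 2186 higher and 2051 lower at 24 h, and 2023 and 1492 at 48 h. Without both Nnm replicate 2 arrays the list counts were 7 and 2 at 24 h and 4 and 2 at 48 h. Over all genes 1970 and 1733 were then called at 24 h, and 1792 and 1364 at 48 h. The block added ANKRD37, NDRG1, PFKFB3, PFKFB4, BNIP3L and ERO1A at 24 h, all higher. At 48 h it added ADM, ANKRD37, PFKFB3 and ERO1A as higher and EPAS1 and BNIP3 as lower. Of the 34 gene results named from the lists, 5 kept their call when any single array was left out (PHF19 at both times, IDH3B and PDK1 at 48 h, and DLST at 24 h), and the other 29 lost it without at least 1 array. The number lost was 16, 8 and 22 without control 24 h replicates 1, 2 and 3, and 21, 1 and 21 without Nnm 24 h replicates 1, 2 and 3. It was 13, 8 and 13 without control 48 h replicates 1, 2 and 3, and 12, 1 and 12 without Nnm 48 h replicates 1, 2 and 3. With the block all 34 kept their call. The 34 include the results of JMJD4 and TET1, which passed the filter only through control or only through Nnm arrays.

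**Figure D5:**
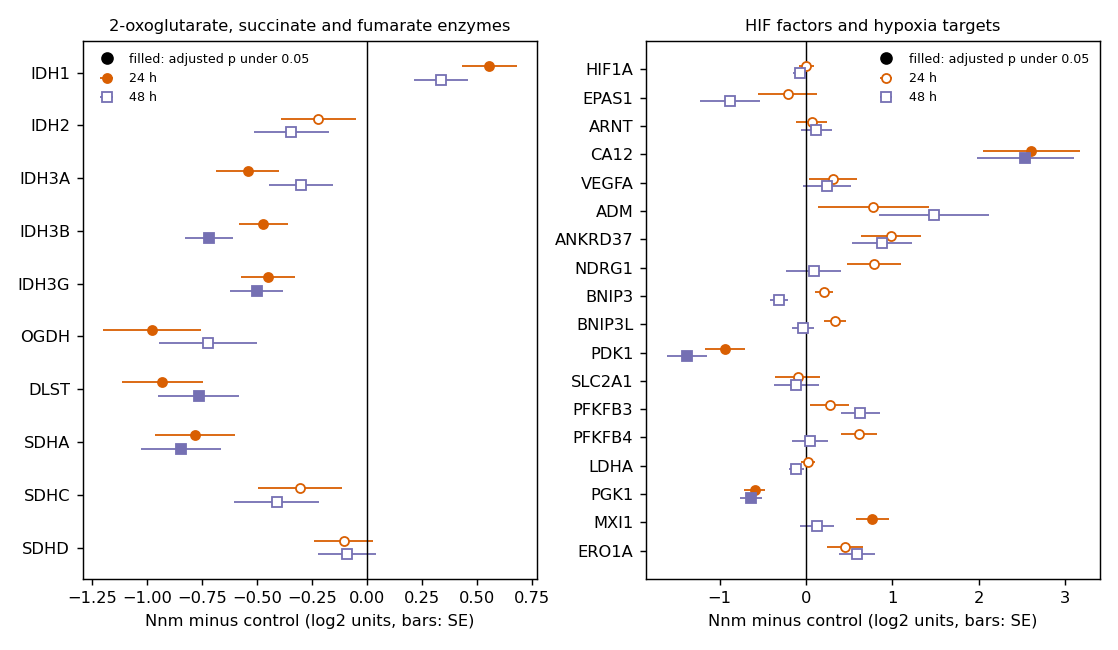
The Nnm minus control difference in log2 units is plotted with its SE for the 10 tested enzymes of 2-oxoglutarate, succinate and fumarate and the 18 tested HIF and hypoxia genes, as circles at 24 h and squares at 48 h, filled where the limma adjusted p was under 0.05. IDH1 stands alone on the right of the first panel at 0.56, and in the second CA12 lies near 2.6 while PDK1 and PGK1 lie on the left.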

How the data were processed

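Total RNA from HK-2 cells was labelled and hybridised to an Affymetrix expression array. The authors deposited log2 expression values for 54675 probe sets on 12 arrays, made with GCRMA per the submitters' processing notes. No source used here gives the GCRMA version or says which arrays were normalised together, and the values are called log2 because of their range. The number of arrays limits the precision.

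Probe sets were named from the platform annotation: 41091 carry 1 gene symbol, 1801 several and 11777 are not listed, with 62 control probe sets left out. The filter asked for a log2 value over 4 on 3 or more arrays and left 19832 probe sets of 1 gene. The probe set of highest mean level stood for each of the 10907 genes. A fit in R 4.3.3 with limma 3.58.1 (lmFit, then eBayes, with the 12 arrays in 4 groups) was run over all genes, with Benjamini-Hochberg adjustment and a threshold of 0.05. It was also run on simulated data with independent noise between arrays. Those data hold no replicate effect, so that the run says nothing of correlated arrays.

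The labels do not say that replicate numbers pair the arrays. Same-numbered arrays of 1 time correlated in their deviations from the group means at 0.34 to 0.51 over 6 pairs. Over any groups this was 0.32 to 0.70 in 18 pairs. The 36 pairs with different numbers in different groups stood at -0.59 to 0.12. Deviations cancel within each group, so that positive values for same numbers in part force negative ones for different numbers. The main fit does not use the replicate numbers, and the fit with them as a block is an alternative. Others are another filter, the mean of probe sets, other scalings, array weights, trend and robust fitting, only 2 groups, and leaving out arrays.

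The 10 genes and all gene lists were chosen with earlier results of these data known. All 10 genes are named, up to 4 genes of each list with the smallest p among those that passed, and the 5 genes most like and 3 least like KDM7A over the arrays. RIOX1, TYW5, IDH3A, IDH3G and OGDH complete short counts and were named after their values were seen. So were the genes named as added by the block. Where these genes had other probe sets that passed the filter, those were not compared. Promoter sequences are RefSeq's (GRCh38.p14), with a window for all 10 genes.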

Additional observations from a re-analysis of the deposited data

How the results depend on the processing

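The KDM7A difference ranged over the 22 alternatives from 2.61 to 4.04 log2 units at 24 h and from 1.11 to 2.13 at 48 h. Its sign could not turn when arrays were left out, because every Nnm array lay above every control of its time. Alternatives that change only the test left the difference as it was. Counts of calls moved, and the cause was not tested. Over all genes 2116 were called at 24 h, against 1272 with no filter, 4864 with array weights, 4237 with the replicate block, 837 with only the 2 groups compared, 3703 without both Nnm replicate 2 arrays, and 404 to 3248 with 1 array left out. At 48 h 1504 were called, against 879, 3468, 3515, 514, 3156, and 267 to 2403 in the same order. Between the controls 14 genes were called, against 6 with no filter, 8 with the mean of probe sets, 92 with weights, 924 with the block, 4 with 2 groups, 63 without both Nnm replicate 2 arrays, and 3 to 27 with 1 array left out. The change from 24 h to 48 h was called in 0, against 1, 1, 37, 2 and 36 (with no filter, the mean of probe sets, weights, the block and without both Nnm replicate 2 arrays), and 0 to 17 with 1 array left out. A fit of only 2 groups cannot give that change. With 1 array left out of a group, the remaining 2 were assumed to vary like the other groups.

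Of the 9 tested demethylases 3 were called at 24 h, against 1 with no filter, 1 with 2 groups, and 0 to 4 with 1 array left out. At 48 h 1 was called, against 2 with the mean of probe sets (KDM5A added), 3 with weights, 2 with the block, 2 without both Nnm replicate 2 arrays, and 0 to 2 with 1 array left out. Of the other JmjC genes 5 were called at 24 h, against 3 with no filter, 2 with the mean of probe sets, 3 with median centring, 0 with 2 groups, 3 without both Nnm replicate 2 arrays, and 0 to 5 with 1 array left out. At 48 h 2 were called, against 0 with the mean of probe sets, with quantile normalisation and with 2 groups, and 0 to 2 with 1 array left out. With the mean of probe sets HIF1AN turned to -0.020 at 24 h and NSD2 to -0.19 at 48 h. Calls that the replicate block changed are given with the results where a named list turns on them; all 34 list gene results kept their call under it. Of the 34 list gene results, 11 kept their call in each of the 10 alternatives that leave out no single array.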
